A study of Homo sapiens with 8 samples.

Results

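A549 is an established human lung adenocarcinoma line, and its 2 control states in this series were compared here with each other. The reference state is the vector control, 2 libraries whose genotype label reads as the vector and whose titles are vector1 and vector2. The other is the knockdown control, 2 libraries labelled Negative Control and titled ASONC1 and ASONC2. The comparison takes these 4 of the 8 libraries, the other 4 being 2 of AFAP1-AS1 overexpression and 2 of AFAP1-AS1 knockdown (titles OE and ASO). The abbreviation is not spelled out in the labels and usually means an antisense oligonucleotide. They give no vector, oligonucleotide sequence, delivery method, dose or time for any group, so oligonucleotide, delivery, clone and culture cannot be told apart in any difference between the controls. All groups share the cell line, and nothing says that the replicates of a group came from separate cultures. If they did not, the p-values rest on technical spread alone.

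Of 17056 genes, 10648 (62.4%) had a mean of at least 1 FPKM over the 8 libraries and were tested. FPKM is a fragment count divided by gene length and library size. The gene nearest the limit from above was WDR31 (mean 1.002 FPKM) and from below SLAMF7 (mean 0.999 FPKM). The mean ran over all groups, so a gene high in 1 group alone could pass through that group. ARC, IFNB1, CLDN6, EGR4 and CD79A, nearly silent in the vector control, were among the genes that entered through libraries where they were high. Their p-values, any place among the largest increases and the counts that hold such genes depend on that choice. With no filter, none of the 185 named genes tested changed its call. Each of them had passed the filter and kept the same difference without it, so this does not test the choice. A further 198 genes were listed above 0 in both knockdown control libraries and at 0 in the other 6, and they are described at the end. Those 198 were chosen by their values and carry no test.

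Cells that take up synthetic nucleic acid can sense it as if it came from a pathogen. Endosomal and cytosolic sensors signal through adaptors and the kinase TBK1 to the transcription factor IRF3 and to NF-kB, which switch on interferon genes. Secreted interferon acts on its receptors and, through the JAK kinases and STAT factors, on a broad set of interferon-stimulated genes. Immediate early genes such as FOS and EGR1 respond within minutes to growth factors, stress and handling, and need no new protein for it. The integrated stress response joins several stress kinases at the translation factor eIF2 and acts through ATF4 on genes of amino acid supply and cell death.

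Depth was similar across the 8 libraries, with library totals recovered from the FPKM steps between 33741261 and 37597624 reads. The sum of FPKM was 371927 and 378036 in the vector control and 435349 and 437924 in the knockdown control. Replicates of a group correlated across genes with r between 0.997 and 0.998, while the 2 group means had r = 0.964. Reads of replicate libraries departed from Poisson expectation (chi-square over its degrees of freedom, from 5.11 to 5.89), so each library was kept as a sample. The median absolute difference between replicates was 0.07 on the log2(FPKM + 1) scale in either control, and between the 2 controls it was 0.30.

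Promoter sequence is shown for 4 genes that were higher in the knockdown control: 2 of the interferon system, 1 of amino acid supply and 1 immediate early gene. Each holds a match to the element marked. Not all members of the gene lists do, and the shares follow the sequences. Each sequence is the 250 bases before the RefSeq gene start on GRCh38.p14, 5′ to 3′ along the gene. The interferon gene IFNB1 lies on the minus strand (chr9:21077943-21078192) and the interferon-stimulated gene ISG15 on the plus strand (chr1:1013247-1013496). Capitals in both mark matches to AANNGAAA, the core of the element bound by IRF factors. ASNS, asparagine synthetase, is on the minus strand (chr7:97872409-97872658), and capitals mark TGATGNAA, the core of the element bound by ATF4 with a C/EBP partner. EGR1 is on the plus strand (chr5:138465229-138465478), and capitals mark the CArG box, bound by the serum response factor SRF.
IFNB1: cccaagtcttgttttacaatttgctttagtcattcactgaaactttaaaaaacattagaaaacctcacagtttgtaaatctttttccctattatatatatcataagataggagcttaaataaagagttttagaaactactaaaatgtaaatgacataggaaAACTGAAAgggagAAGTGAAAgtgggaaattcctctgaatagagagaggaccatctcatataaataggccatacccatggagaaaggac
ISG15: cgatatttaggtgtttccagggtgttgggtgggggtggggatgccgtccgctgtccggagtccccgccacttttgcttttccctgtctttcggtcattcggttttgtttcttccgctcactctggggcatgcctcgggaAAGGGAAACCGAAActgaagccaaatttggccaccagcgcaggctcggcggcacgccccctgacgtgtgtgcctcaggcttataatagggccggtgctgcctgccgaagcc
ASNS: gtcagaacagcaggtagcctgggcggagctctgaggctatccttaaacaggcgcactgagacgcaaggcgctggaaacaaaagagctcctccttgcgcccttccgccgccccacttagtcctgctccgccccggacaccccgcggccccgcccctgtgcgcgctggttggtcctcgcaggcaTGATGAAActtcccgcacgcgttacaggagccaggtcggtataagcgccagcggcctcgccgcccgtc
EGR1: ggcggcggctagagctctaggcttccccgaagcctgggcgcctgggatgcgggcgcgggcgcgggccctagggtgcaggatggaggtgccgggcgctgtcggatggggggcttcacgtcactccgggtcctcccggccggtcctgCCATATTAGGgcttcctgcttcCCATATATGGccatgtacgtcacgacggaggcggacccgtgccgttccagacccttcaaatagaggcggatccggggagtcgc
IFNB1 holds 2 matches ending 68 bases before the start, ISG15 holds 2 overlapping matches ending 97 bases before it, ASNS holds 1 and EGR1 holds 2. Matches were searched on both strands in 27305 RefSeq promoters. The IRF core was found in 20.6% of them and in 30 of 40 interferon response genes with a promoter entry. TGATGNAA was in 3.19% of all promoters and in 4 of 27 genes of the integrated stress response. The CArG box was in 1.14% of all, in 2 of 27 immediate early genes and, at a like share, in 3 of 40 interferon response genes. A match is a string of letters and not evidence of binding in these cells.

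The 2 controls differed across most of the expressed genome, mostly by small amounts. Limma called 7309 of 10648 genes (68.6%) at an adjusted p below 0.05, of which 3918 (36.8% of those tested) were higher in the knockdown control and 3391 (31.8%) were lower. These shares are the background for the counts of every gene list below. In 7301 of the called genes the 2 libraries of one control did not overlap the 2 of the other. A call with so few libraries nearly requires this, so the count adds no separate support. With 2 against 2, such a separation has an exact permutation p of 0.333 at best. The count over all tested genes is not given. The median difference over all genes was 0.04 and the quartiles were -0.27 and 0.33 on the log2(FPKM + 1) scale, the scale of every difference below. By at least 1 unit, 200 genes were called higher and 215 lower, and by at least 2 units 18 and 2 genes. The split of calls depended on scaling: 53.6% of the calls were higher with FPKM as deposited and 31.7% with TPM, where every library is scaled to the same sum and the median of all genes moved from 0.04 to -0.16.

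Immediate early genes were 6 of the 15 largest increases. Of 35 tested, 25 rose and 2 fell (TRIB1, -0.77, and KLF6, -0.23, named after their values were seen), with a median of 0.44 against 0.04 over all genes. EGR1, a zinc finger transcription factor on chromosome 5 (GRCh38, 138465490 to 138469315, plus strand), had 5.29 and 3.98 FPKM in the vector control and 56.6 and 59.3 in the knockdown control. It stood at 3.06 and 3.73 FPKM with overexpression and at 28.97 and 26.6 with knockdown. Its libraries did not overlap between the controls, and the difference was 3.396 ± 0.10 (SE), with a limma adjusted p of 6.9e-10. FOS, a subunit of the AP-1 factor on chromosome 14, had 0.916 and 1.30 FPKM against 16.2 and 16.0 (3.03 ± 0.10), and only 2.33 and 2.52 with knockdown. ARC, which encodes a cytoskeleton-associated protein of active neurons, had 0.281 and 0.239 FPKM against 17.5 and 19.0, the largest difference of the comparison (3.93 ± 0.09, limma adjusted p = 1.7e-10). In the knockdown libraries ARC was at 0.150 and 0.190 FPKM, no higher than in the vector control.

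The same list held further AP-1 and EGR family members. FOSB went from 0.981 and 1.06 FPKM to 10.9 and 12.3 (2.64 ± 0.09), and JUNB from 15.9 and 12.9 to 61.4 and 68.1 (2.10 ± 0.08). EGR4 was nearly silent in the vector control, with 1 and 0 reads, and had 387 and 481 reads in the knockdown control. IER2, an immediate early nuclear protein gene, had 26.1 and 27.1 FPKM against 81.0 and 81.7 (1.58 ± 0.04). Neither MYC (0.09) nor CCN1 (-0.03), also of this list and named after their values were seen, was called. These genes were short and GC-rich as a group (median length 3038 bases and 55.4% GC, against 3874 and 48.3% over all genes tested). After each library was corrected for a smooth trend on length and GC content, 20 were called higher and 4 lower, with a median of 0.27. EGR1, FOS and ARC were then at 3.19, 2.76 and 3.52. The part of length and GC content in the differences was not tested.

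**Figure D1:**
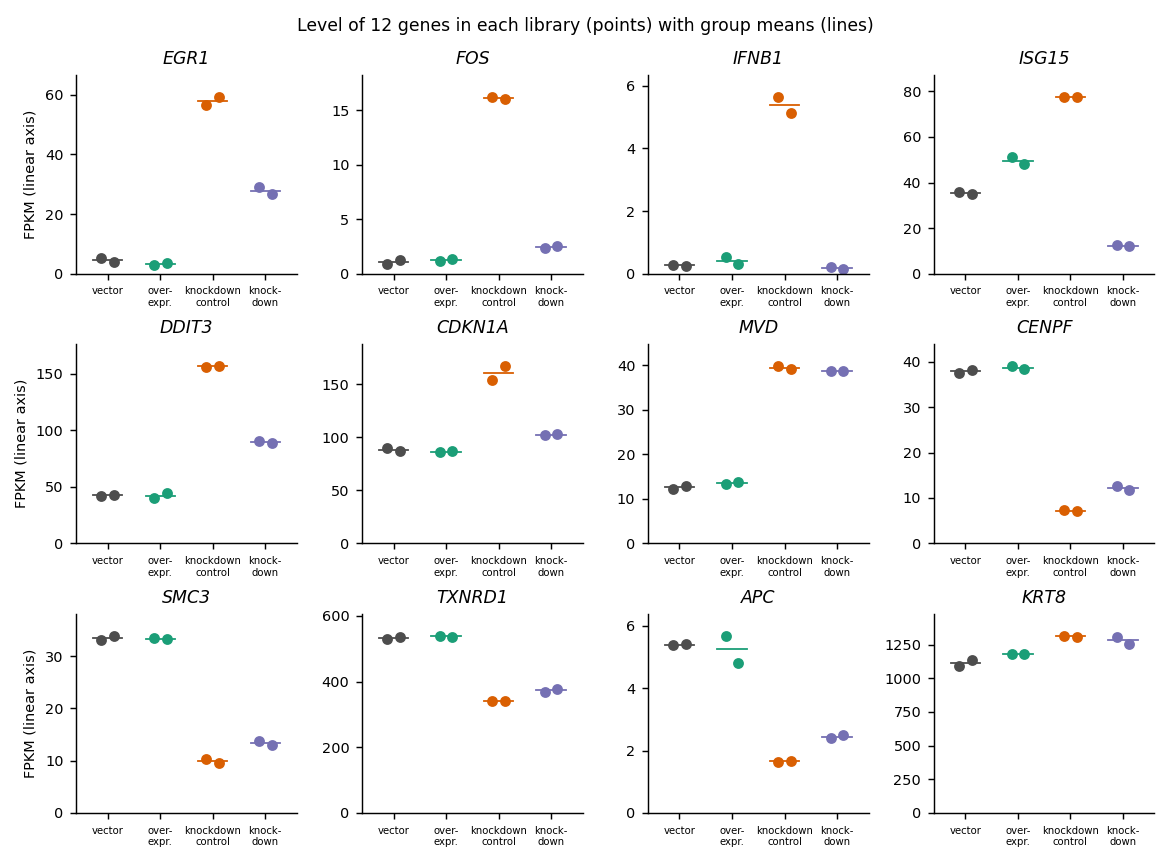
FPKM of 12 genes in each library (points, linear axis from 0) with the mean of each group (lines), for the vector control, AFAP1-AS1 overexpression, knockdown control and AFAP1-AS1 knockdown. The knockdown control libraries of EGR1, FOS and IFNB1 lie far above the vector control ones, and those of CENPF, SMC3 and APC far below.

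Interferon genes themselves rose. IFNB1, which encodes interferon beta (chromosome 9, 21077105 to 21077963, minus strand, a single exon), had 0.283 and 0.259 FPKM in the vector control and 5.65 and 5.15 in the knockdown control. In reads this was 8 and 8 against 169 and 159, with 7 and 5 in the knockdown libraries. The difference was 2.33 ± 0.11 with a limma adjusted p of 6.7e-09. IFNL1, a type III interferon gene, had 0.421 and 0.945 FPKM against 5.65 and 5.61 (1.995 ± 0.13), and 1.89 and 1.58 with overexpression. Of 9 tested genes for interferons and their receptors, 5 rose and 3 fell, beside 36.8% higher and 31.8% lower over all genes tested. Among the receptor and signalling genes, IFNGR2 rose (0.66 ± 0.06) while JAK1, the kinase shared by the interferon receptors, fell from 84.5 and 84.7 FPKM to 49.7 and 49.8 (-0.75 ± 0.04). IFNGR1 (-0.54) and IFNAR1 (-0.19) also fell. The median of the list was 0.16 and turned to -0.04 with TPM scaling.

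Interferon-stimulated genes rose in part. Of 41 tested members of the response, 24 rose and 7 fell, with a median of 0.26. ISG15, a ubiquitin-like modifier, had 35.8 and 34.9 FPKM against 77.6 and 77.5 (1.11 ± 0.05, limma adjusted p = 3.7e-09), and IFI6, a mitochondrial protein gene, 30.4 and 32.9 against 70.4 and 67.9 (1.10 ± 0.06). In both genes overexpression lay between the controls and knockdown lay below both, at 12.5 and 12.04 FPKM for ISG15. STAT2 (0.14) and the antiviral membrane protein gene IFITM3 (0.19) were not called. After the length and GC correction 24 were higher and 7 lower (median 0.33), and with TPM scaling 16 and 12 (median 0.098). Knockdown against the vector control had a median of -0.91 over the same genes. That comparison uses the same vector libraries.

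Of 16 tested nucleic acid sensors and adaptors, 7 rose and 4 fell, shares near the 36.8% and 31.8% over all genes tested. The adaptor genes TICAM1 and MYD88 rose (0.66 ± 0.11 and 0.50 ± 0.06), as did IRF3, from 23.0 and 23.0 FPKM to 33.9 and 32.4 (0.51 ± 0.05). TBK1, the kinase that activates IRF3, fell from 16.5 and 15.7 FPKM to 9.61 and 8.68 (-0.76 ± 0.06). After the length and GC correction IRF3 was no longer called (0.11, limma adjusted p = 0.07), and the list's median of 0.16 was below 0 with TPM scaling.

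NF-kB and inflammatory genes rose, with an exception at PTGS2. Of 31 tested, 20 rose and 5 fell (median 0.49). CXCL8, the gene of the neutrophil chemokine IL-8, had 12.5 and 12.8 FPKM against 39.3 and 41.5 (1.60 ± 0.05), and TRAF1, a receptor-associated signalling protein gene, 3.80 and 3.52 against 15.03 and 15.3 (1.80 ± 0.07). NFKBIA, the feedback inhibitor of NF-kB, went from 54.7 and 53.1 FPKM to 96.8 and 94.8 (0.82 ± 0.04). PTGS2, which encodes cyclooxygenase 2, fell from 26.05 and 26.9 to 10.5 and 10.01 (-1.29 ± 0.05). The others that fell, named after their values were seen, were REL (-0.67), BIRC3 (-0.39), RELA (-0.28) and SOD2 (-0.23). Corrected for length and GC the list had 18 higher and 3 lower and a median of 0.21.

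Genes of the integrated stress response rose. Of 32 tested, 23 rose and 3 fell, with a median of 0.68, against 0.64 when corrected for length and GC and 0.51 with TPM. DDIT3, which encodes the stress factor CHOP (chromosome 12, 57516588 to 57521737, minus strand), had 41.7 and 43.1 FPKM against 156 and 157 (1.86 ± 0.05, limma adjusted p = 2.9e-10). DDIT4, an inhibitor of mTOR signalling, had 50.9 and 52.8 FPKM against 173 and 194 (1.80 ± 0.05), and 197 and 186 with knockdown. ATF3 had 28.5 and 32.1 FPKM against 87.4 and 85.5 (1.49 ± 0.06), and 24.2 and 24.5 with knockdown. ASNS had 23.0 and 24.1 FPKM against 54.8 and 53.9 (1.17 ± 0.05). ATF4 mRNA itself was not called (-0.09), and SLC7A11 (-1.02), SLC38A2 (-0.28) and ATF5 (-0.26) fell, the last 2 named after their values were seen. All 20 tested cytosolic aminoacyl-tRNA synthetase genes were called, 11 higher and 9 lower, among them CARS1 (0.95 ± 0.05), GARS1 (0.79 ± 0.04) and LARS1 (-0.65 ± 0.05). That list was split in direction, and over all genes tested 36.8% were called higher and 31.8% lower.

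Chaperone lists of the endoplasmic reticulum and the cytosol were close to the background. Of 30 tested genes of the unfolded protein response 13 rose and 9 fell, near the 36.8% and 31.8% over all genes tested, and the median of 0.05 changed sign with TPM and quantile scaling. XBP1 (0.92 ± 0.06) and HERPUD1 (0.92 ± 0.05) rose, while the lumenal chaperone gene HSP90B1 fell from 294 and 311 FPKM to 191 and 176 (-0.72 ± 0.05). Of 29 heat shock and folding genes 14 rose and 8 fell (median 0.09, below 0 with TPM, quantile scaling and the length and GC correction). DNAJB1 rose from 33.5 and 33.4 FPKM to 61.1 and 60.97 (0.85 ± 0.04). HSP90AA1 fell from 719 and 748 to 495 and 469 (-0.60 ± 0.04), while it was at 714 and 673 with knockdown.

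Targets of p53 and regulators of apoptosis rose in part. Of 33 tested p53 targets, 19 rose and 6 fell (median 0.33, and 0.27 after the length and GC correction). GADD45A had 76.2 and 81.4 FPKM against 181 and 196 (1.25 ± 0.05), and CDKN1A, the p21 gene, 89.6 and 86.7 against 154 and 167 (0.85 ± 0.04). PMAIP1, which encodes the BH3-only protein NOXA, had 13.2 and 13.2 FPKM against 36.6 and 39.0 (1.45 ± 0.07). MDM2, the p53 ubiquitin ligase gene and a target itself, was among the 6 that fell (-0.81, named after its value was seen). Of 22 genes of the BCL2 family and apoptosis, 14 rose and 4 fell (median 0.49), with MCL1 at 0.64 ± 0.04 and BBC3 (PUMA) at 1.01 ± 0.07. BIRC3 (-0.39), XIAP (-0.31), BIRC2 (-0.24) and BCL2L2 (-0.21), named after their values were seen, were the 4 that fell. Corrected for length and GC, 14 were higher and 1 lower (BCL2L2, -0.33), with a median of 0.25. XIAP was then higher (0.19), and BIRC3 (-0.07) and BIRC2 (0.07) were not called.

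In cholesterol synthesis and uptake 25 of 27 tested genes rose and 0 fell. The median of the list was 0.77, with 0.70 when corrected for length and GC and 0.65 with TPM. MVD, mevalonate diphosphate decarboxylase (chromosome 16, minus strand), had 12.3 and 12.9 FPKM against 39.8 and 39.1 (1.57 ± 0.05, limma adjusted p = 8.3e-10). FDFT1, squalene synthase, had 36.2 and 36.4 FPKM against 90.1 and 91.0 (1.30 ± 0.04), and FDPS and ACAT2 were higher by 1.10 ± 0.04 and 1.13 ± 0.04. SREBF2, the gene of a factor that drives the pathway, was not called (0.07). Knockdown libraries were as high, with 38.7 and 38.7 FPKM for MVD and a median of 1.03 against the vector control. Of 16 fatty acid synthesis genes 7 rose and 4 fell (median 0.07, below 0 with TPM and quantile scaling), with ACSS2 at 0.95 ± 0.08 and FADS2 at 0.62 ± 0.03. ACSL3 was lower as deposited (-0.39 ± 0.04), and its difference was 0.02 after the length and GC correction. Of 9 genes of cholesterol efflux, 3 rose and 2 fell. Over all genes tested 36.8% were called higher and 31.8% lower, the background for this list and for fatty acid synthesis. ABCA1, the main exporter, had 5.95 and 5.94 FPKM against 3.84 and 3.75 (-0.53 ± 0.08).

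Of 35 tested genes of hypoxia and glycolysis, 22 rose and 6 fell (median 0.38). Corrected for length and GC, 22 were higher and 9 lower (median 0.26), and with TPM scaling 20 and 11 (median 0.16). ANGPTL4, a secreted lipase inhibitor gene, had 5.68 and 5.64 FPKM against 26.6 and 26.5 (2.05 ± 0.09), and NDRG1 15.1 and 15.8 against 28.5 and 29.8 (0.88 ± 0.05). HIF1A, the gene of the hypoxia factor, fell from 106 and 108 FPKM to 45.7 and 45.2 (-1.21 ± 0.04). The others that fell, named after their values were seen, were KDM3A (-0.57), CA12 (-0.46), EPAS1 (-0.44), PFKP (-0.12) and ADM (-0.10). Of 8 tested genes of the metal response 3 rose and 3 fell, near the 36.8% and 31.8% over all genes tested. The 3 that rose encode metallothioneins, small metal-binding proteins. MT2A had 209 and 218 FPKM against 670 and 764 (1.74 ± 0.06), and MT1X 21.1 and 19.2 against 65.4 and 78.6 (1.78 ± 0.08). Their near-identical paralogs can share reads, so the split between them is uncertain. TFRC, the transferrin receptor gene, fell from 73.9 and 71.9 FPKM to 44.2 and 41.9 (-0.75 ± 0.04).

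A549 carries a KEAP1 mutation and is known for constant activity of NRF2, the antioxidant transcription factor. Of 35 NRF2 targets tested, 8 rose and 20 fell (median -0.16), and after the length and GC correction 6 rose and 26 fell (median -0.42). TXNRD1, thioredoxin reductase, fell from 528 and 535 FPKM to 340 and 341 (-0.64 ± 0.03), and SLC7A11, the cystine importer, from 44.0 and 43.9 to 20.5 and 21.8 (-1.02 ± 0.05). UGDH went from 183 and 187 FPKM to 101 and 105 (-0.84 ± 0.04). ABCC2, an efflux pump for glutathione conjugates, fell from 106 and 103 FPKM to 51.4 and 47.1 (-1.07 ± 0.05). Drug efflux transporters as a list had 7 of 10 tested genes lower and 1 higher (ABCC10, 0.34), with a median of -0.61. The length and GC correction left the counts the same, with a median of -0.29. ABCC1 (-0.63 ± 0.04), ABCC3 (-0.69 ± 0.05) and ABCG2 (-0.66 ± 0.06) were among those that fell, and each kept its call after the length and GC correction.

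**Figure D2:**
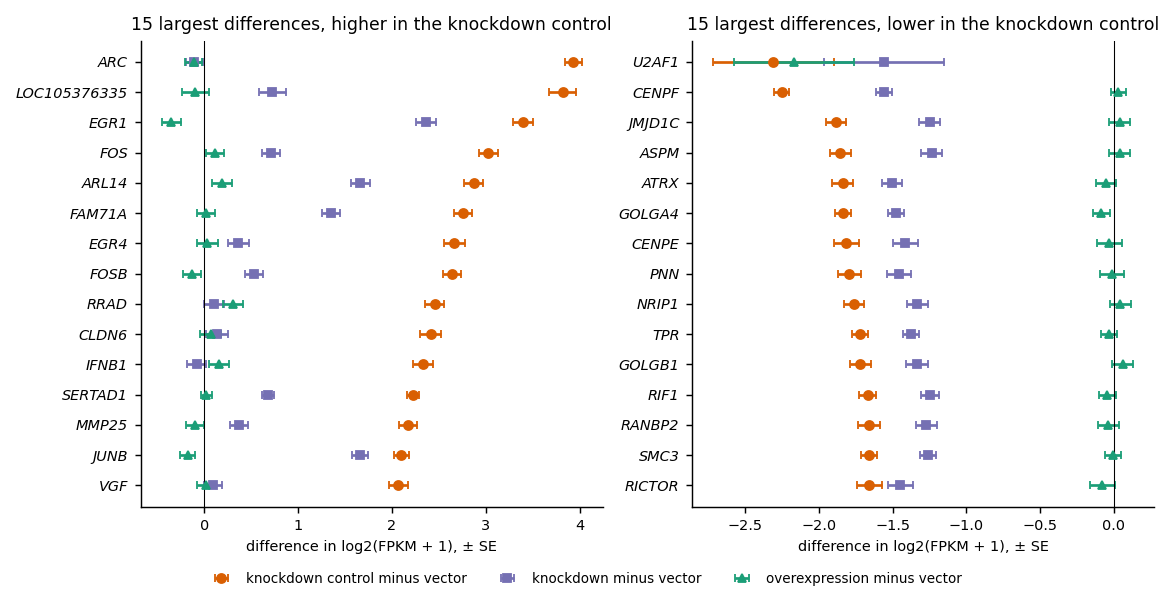
Difference from the vector control in log2(FPKM + 1), with its standard error, for the 15 genes with the largest increase (left) and the 15 with the largest decrease (right) in the knockdown control. Circles are knockdown control, squares AFAP1-AS1 knockdown and triangles overexpression, all against the same 2 vector libraries. ARC, RRAD, CLDN6, IFNB1 and VGF have squares near 0, whereas the squares of the genes on the right lie below -1.

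Beyond immediate early and interferon genes, the 15 largest increases held genes of varied roles. CLDN6, a tight junction gene of embryonic epithelium, had 0 and 2 reads in the vector control and 229 and 209 in the knockdown control. RRAD, a small GTPase gene, had 0.989 and 0.720 FPKM against 9.78 and 8.504 (2.45 ± 0.10), and 1.001 and 0.975 with knockdown. ARL14, another GTPase gene, had 1.10 and 1.47 FPKM against 15.8 and 15.6 (2.87 ± 0.10). SERTAD1, a transcriptional coregulator gene, had 9.95 and 9.51 FPKM against 48.8 and 49.6 (2.23 ± 0.06). The neurosecretory gene VGF and the matrix protease gene MMP25 rose by 2.07 ± 0.10 and 2.17 ± 0.10. FAM71A and LOC105376335 completed the group (2.75 ± 0.10 and 3.82 ± 0.14). The length and GC correction could be applied to 14 of the 15, since LOC105376335 has no matched entry in the annotation used, and all 14 were called higher there too. Differences between knockdown and vector control in these genes ran from -0.11 for ARC to 2.36 for EGR1, with a median of 0.53.

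Of the 15 largest decreases, 13 were in genes of at least 5522 bases. Their median length was 9700 bases and their median GC content 39.2%, with GC between 35.3% and 43.2%. CENPF, a kinetochore protein gene (chromosome 1, 214603195 to 214664588, plus strand), had 37.6 and 38.1 FPKM in the vector control and 7.26 and 7.03 in the knockdown control (-2.26 ± 0.05, limma adjusted p = 1.7e-10). JMJD1C, a histone demethylase family gene, fell from 9.57 and 9.45 FPKM to 1.78 and 1.91 (-1.89 ± 0.07), and the chromatin remodeler gene ATRX from 11.3 and 11.6 to 2.43 and 2.52 (-1.84 ± 0.07). GOLGA4 (-1.84 ± 0.06) and GOLGB1 (-1.72 ± 0.07) encode golgins of the Golgi apparatus, and TPR (-1.72 ± 0.05) and RANBP2 (-1.66 ± 0.07) nuclear pore proteins. PNN, NRIP1, RIF1 and RICTOR were lower by 1.79, 1.76, 1.67 and 1.66 units. U2AF1, a splicing factor gene, had the lowest value (-2.31 ± 0.41), but it has a near-identical copy, its knockdown libraries differed (5.51 and 0.833 FPKM), and it was also low with overexpression (0.821 and 1.82 FPKM). It is reported as uncertain. In the other 14, overexpression differed from the vector control by -0.08 to 0.06 units.

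Genes of mitosis fell widely. Of 48 tested, 32 fell and 6 rose, with a median of -0.53, against -0.50 when corrected for length and GC (40 lower, 3 higher). ASPM, a spindle pole gene, fell from 15.2 and 14.8 FPKM to 3.53 and 3.31 (-1.86 ± 0.07), and the mitotic kinesin gene KIF20B from 14.2 and 14.5 to 4.01 and 3.96 (-1.62 ± 0.06). CENPE, a kinetochore motor gene, fell from 7.92 and 8.18 FPKM to 1.40 and 1.76 (-1.82 ± 0.08). TOP2A, topoisomerase II alpha, had 131 and 137 FPKM against 56.6 and 51.5 (-1.30 ± 0.05), and 85.2 and 83.3 with knockdown. The 6 that rose, named after their values were seen, were CCNB1 (0.13), CCNB2 (0.14), BIRC5 (0.24), UBE2C (0.27), PTTG1 (0.21) and CDC25C (0.34), which encode cyclins and regulators of mitotic entry and exit. CDK1 (-0.15), PLK1 (-0.23) and FOXM1 (-0.21) were called lower by small amounts, and AURKA (-0.07), AURKB (0.03) and CDC20 (-0.08) were not called. These last 6 were also chosen with their values known. In bulk RNA, fewer cells in mitosis and less RNA per cell cannot be told apart.

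Chromosome structure genes fell as well. Of 21 tested genes of cohesin, condensin and SMC complexes, 20 fell and 0 rose, MAU2 (-0.07) being the one not called, with a median of -0.83. SMC3, a cohesin ring subunit gene (chromosome 10, 110567691 to 110604636, plus strand), had 33.1 and 33.9 FPKM against 10.3 and 9.60 (-1.66 ± 0.05, limma adjusted p = 1.1e-09). The condensin subunit gene SMC2 had 15.7 and 15.9 against 5.05 and 4.63 (-1.52 ± 0.07), and STAG2 fell by 1.27 units. Of 45 DNA repair genes, 30 fell and 3 rose (RAD51C, 0.30, RECQL4, 0.31, and ERCC1, 0.31, named after their values were seen), with RAD50 at -1.66 ± 0.06 and NBN at -1.03 ± 0.05, subunits of a double-strand break sensor. Of 59 chromatin remodelers and methylation enzymes, 48 fell and 2 rose (median -0.49), and KDM6B, an H3K27 demethylase gene, was one of the 2, with 3.65 and 3.38 FPKM against 9.79 and 10.04 (1.27 ± 0.07). After the length and GC correction 18 cohesin and condensin genes, 25 DNA repair genes and 37 chromatin genes were still called lower, with medians of -0.53, -0.25 and -0.24. Of 43 G1/S and E2F targets 20 fell and 9 rose (median -0.12), with MCM2, a replication helicase subunit gene, at -0.63 ± 0.04, and CDK4 and CCNE1 at 0.59 ± 0.05 and 0.63 ± 0.05. With the length and GC correction 27 of these were lower and 4 higher (median -0.21), and with TPM scaling 31 and 3 (median -0.34).

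The title of the series names SR splicing factors and AXIN2. Of 23 tested SR proteins and kinases, 15 fell and 5 rose (median -0.34), with SRRM2 at 81.0 and 69.8 FPKM against 37.4 and 36.8 (-0.9999 ± 0.06) and SRSF11 at 20.3 and 20.3 against 10.6 and 10.4 (-0.89 ± 0.05). SRSF7 (0.44), SRSF9 (0.46), SRSF8 (0.26), SRSF3 (0.21) and TRA2A (0.12), named after their values were seen, rose. With the length and GC correction 13 SR genes were lower and 7 higher (median -0.30). Of 25 hnRNP and FET genes 20 fell and 2 rose (HNRNPAB, 0.16, and HNRNPF, 0.13), with a median of -0.21. The correction left 15 lower and 5 higher with a median of -0.10. HNRNPU had 171 and 170 FPKM against 113 and 115 (-0.58 ± 0.03). In a list of 21 snoRNA hosts, decay-sensitive transcripts and decay genes, only 8 were in the table, so most of the list was not measured. Of these 8, all tested, 6 fell and 1 rose. SMG1 (-1.25 ± 0.07), UPF3B (-1.13 ± 0.08) and UPF2 (-0.89 ± 0.08), genes of nonsense-mediated decay, were among the 6. GADD45B rose from 43.9 and 45.9 FPKM to 150 and 155 (1.74 ± 0.04). In the Wnt pathway, where AXIN2 is a target and a brake, 10 of 16 tested genes fell and 2 rose (median -0.21, and -0.14 after the length and GC correction with 9 and 1). AXIN2 itself, chosen because the title names it, had 2.98 and 3.03 FPKM against 1.71 and 1.21 (-0.71 ± 0.11, limma adjusted p = 7.8e-05). APC, the scaffold of the destruction complex, fell from 5.39 and 5.41 FPKM to 1.63 and 1.68 (-1.27 ± 0.08), and RNF43 and LGR4 fell by 0.75 and 0.58 units. Splicing itself cannot be read from values per gene.

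Housekeeping genes with short transcripts were higher as deposited, and the correction changed these lists. Of 78 cytosolic ribosomal protein genes 73 rose and 0 fell, with a median of 0.48, a median length of 1105 bases and RPS12 at 949 and 992 FPKM against 1523 and 1558 (0.67 ± 0.03). After the length and GC correction 34 were higher and 28 lower and the median was 0.01, so the direction of the list depended on it. RPS12 was then at 0.03 and not called (limma adjusted p = 0.3). Many of these genes have processed pseudogenes that can share reads. Of 75 nuclear-encoded respiratory chain genes 69 rose and 1 fell (NDUFS1, -0.22), with a median of 0.54. That median was 0.18 after the correction, with 40 higher and 10 lower, and NDUFB9 (173 and 170 FPKM against 299 and 302) kept a difference of 0.28. Proteasome genes had 25 of 38 higher and 6 lower (median 0.28), but 13 and 13 with a median of 0.02 after the correction. Of 17 histone genes 12 rose and 0 fell (median 0.38, with 8 higher and 4 lower after the correction), led by H2BC21 (1.08 ± 0.09).

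**Figure D3:**
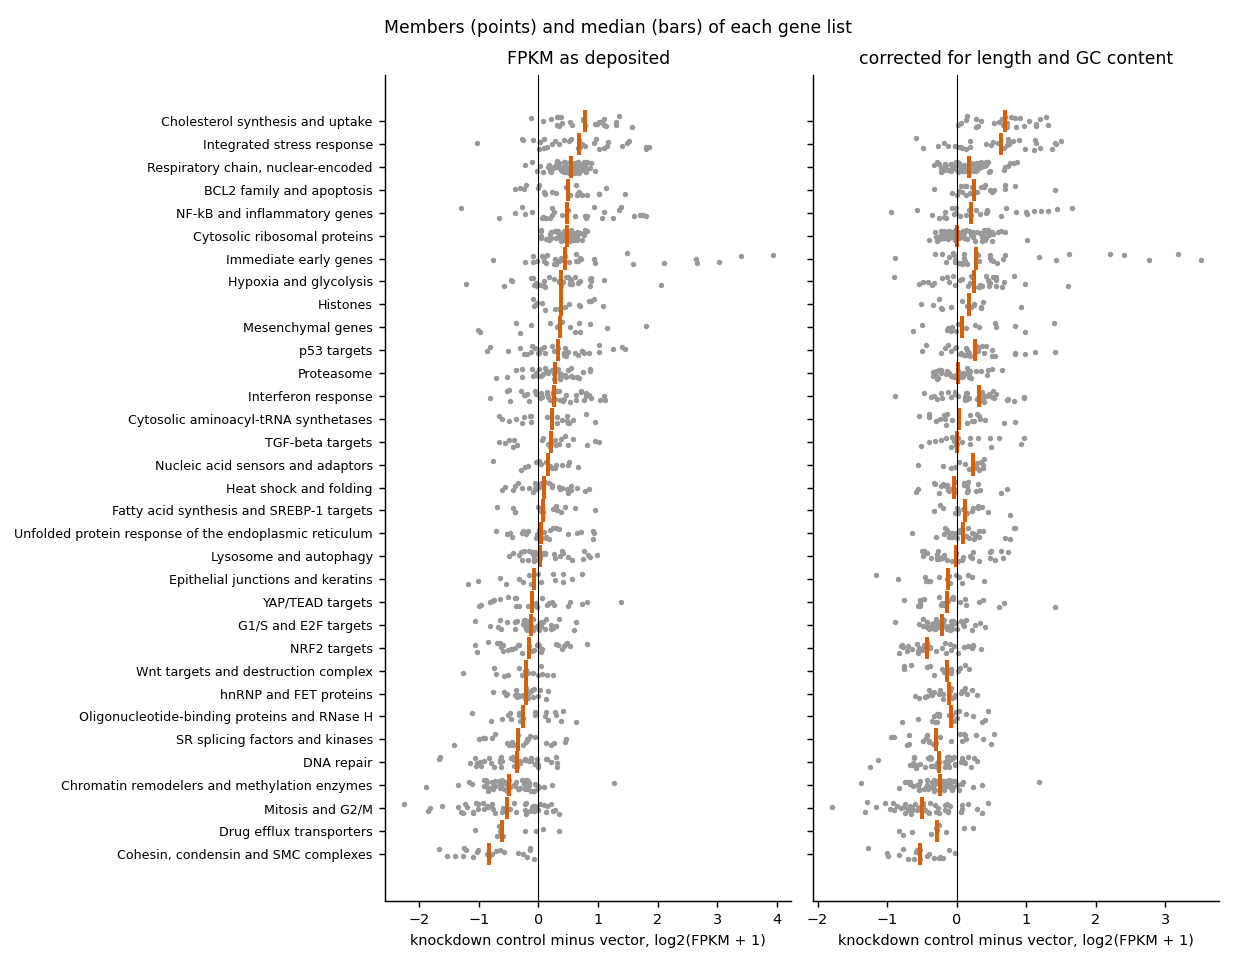
Difference between knockdown control and vector control in log2(FPKM + 1) for the members (points) and the median (bars) of each gene list with at least 10 tested genes, with FPKM as deposited (left) and after correction of each library for length and GC content (right). The medians of ribosomal protein and proteasome genes move to near 0 on the right, while those of cholesterol synthesis (0.77 and 0.70), the integrated stress response (0.68 and 0.64) and mitosis (-0.53 and -0.50) move little.

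Across all tested genes the difference between the controls followed gene length and base composition. Spearman's rho with recovered length was -0.52 over 10648 genes, and with GC content 0.52 over 10632, given as a description because genes share libraries and are not independent replicates. Genes were put in 10 bins of equal size. From the bin of the shortest genes (303 to 1498 bases) to that of the longest (8921 to 41648 bases) the median difference went from 0.49 to -0.31. The share called higher went from 82.3% to 8.54% and the share called lower from 3.29% to 62.3%. In the bin with the lowest GC content the median was -0.33, and in the bin with the highest it was 0.36. In bins by both properties (4 by length and 4 by GC content), the shortest and most GC-rich genes had a median of 0.49, the shortest and GC-poorest 0.11, the longest and GC-richest 0.12 and the longest and GC-poorest -0.48. Exon number followed less closely (rho -0.40). Knockdown against the same vector libraries had rho -0.49 with length and 0.41 with GC, and overexpression -0.08 and 0.13. The cause of the trend was not tested.

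**Figure D4:**
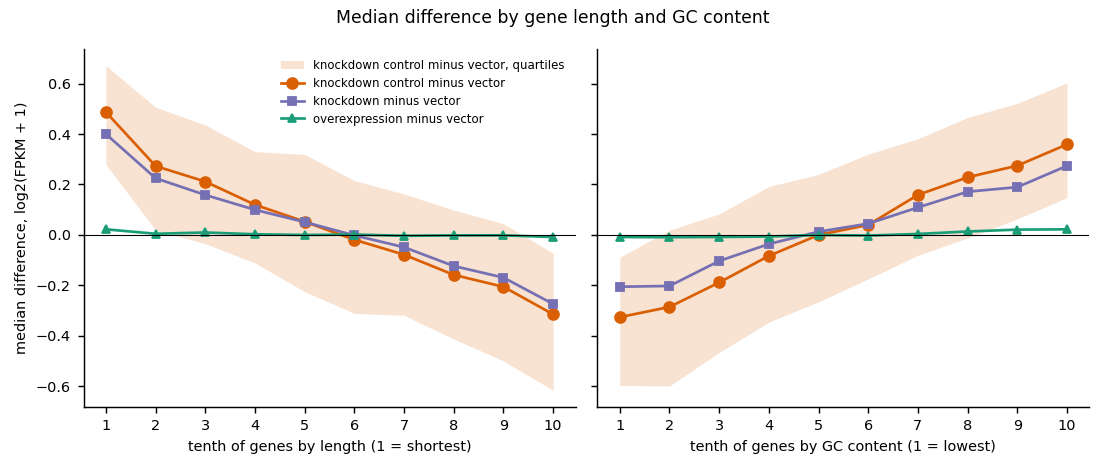
Median difference from the vector control in log2(FPKM + 1) by 10 bins of genes ordered by length (left) and GC content (right), for the knockdown control (circles, band from the first to the last quartile), AFAP1-AS1 knockdown (squares) and overexpression (triangles). The knockdown control runs from 0.49 to -0.31 over length, and overexpression stays near 0.

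After the correction the controls still differed in 6233 of 10632 genes, 3001 higher and 3232 lower. Of the genes called by at least 1 unit as deposited, 88 of the 200 that were higher and 48 of the 215 that were lower stayed at least 1 unit apart in the same direction. The 215 had a median length of 7900 bases and 39.5% GC, and the 200 had 1943 bases and 58.2% GC. Values with knockdown against the same vector control had medians of -0.93 over the 215 and 0.73 over the 200, and values with overexpression -0.02 and 0.04.

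The counts of the next lists stand beside a background of 36.8% higher and 31.8% lower over all genes tested. Of 25 YAP/TEAD targets 7 rose and 11 fell. NT5E, the CD73 ectonucleotidase gene, had 10.8 and 10.5 FPKM against 29.8 and 28.7 (1.38 ± 0.05). TEAD1 had 38.1 and 33.9 against 18.05 and 17.8 (-0.96 ± 0.06). Of 21 TGF-beta targets 12 rose and 6 fell (median 0.21, at 0 after the length and GC correction), with PMEPA1 at 1.02 ± 0.04 and TGFBR2 at -0.66 ± 0.05. Of 16 mesenchymal genes 10 rose and 4 fell (median 0.37), and after the correction 7 were higher and 3 lower (median 0.07). SNAI1, a repressor of epithelial genes, had 0.991 and 1.54 FPKM against 7.66 and 6.07 (1.80 ± 0.13), and 1.06 and 0.955 with knockdown. FN1, fibronectin, fell from 129 and 120 FPKM to 61.6 and 59.96 (-1.02 ± 0.04). Of 16 epithelial junction and keratin genes 6 rose and 8 fell, with the desmosomal gene DSP at 26.01 and 25.7 FPKM against 12.2 and 12.5 (-1.01 ± 0.05). After the correction 1 of them was higher and 10 lower, and with quantile scaling 3 and 9. Of 35 tested genes of lysosome and autophagy 13 rose and 7 fell (median 0.02, below 0 with TPM, median-of-ratios and quantile scaling and the length and GC correction). The share that rose was near the 36.8% over all genes tested. NPC2, a lysosomal cholesterol carrier gene, rose from 96.7 and 101 FPKM to 200 and 194 (0.99 ± 0.04). Of 21 tested genes for oligonucleotide-binding proteins and RNase H, 7 rose and 11 fell (median -0.27), with LRPPRC at -1.11 ± 0.05 and the RNase H2 subunit gene RNASEH2C at 0.63, the latter named after its value was seen. After the correction 5 were higher and 10 lower, with a median of -0.079.

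Keratin and detoxification genes that mark the line were strongly expressed in both states. KRT8 had 1093 and 1135 FPKM against 1317 and 1308, KRT18 981 and 984 against 1303 and 1307, and KRT7 995 and 1020 against 1339 and 1332. These increases of 0.24, 0.41 and 0.41 units were not called higher after the length and GC correction, where KRT8 was at -0.10, KRT18 at -0.0059 and KRT7 at 0.03, and KRT8 was at -0.18 with quantile scaling. ALDH1A1 (1972 and 2026 FPKM against 1773 and 1745, -0.18 ± 0.03), ALDH3A1 (-0.14 ± 0.04), AKR1C1 (-0.39 ± 0.03) and AKR1C3 (-0.16 ± 0.04), enzymes that A549 expresses strongly, were slightly lower. AKR1C2 (at 0) was not called. CDH1, E-cadherin, fell from 4.08 and 3.55 FPKM to 1.44 and 0.841 (-1.18 ± 0.14). EPCAM, NKX2-1 and the napsin gene NAPSA were under 1 FPKM in every library. The surfactant genes SFTPA1, SFTPB and SFTPC, markers of alveolar type II cells, were each listed at 0 in 7 of the 8 libraries.

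Markers of other cell types were mostly low, and some were higher in the knockdown control. The endothelial, germline and neuronal lists had fewer summed reads there. The 11 immune markers analysed here summed to 53.1 and 54.5 FPKM in the vector control and 100.6 and 100.5 in the knockdown control. Most of that was CD68, a lysosomal protein gene (48.8 and 50.2 against 89.2 and 90.1 FPKM, 0.84 ± 0.04). CD79A, of the B cell receptor, had 11 and 12 reads against 117 and 111 (1.66 ± 0.12), and ITGAM, an integrin gene of myeloid cells, 2.27 and 1.86 FPKM against 5.92 and 5.41 (1.123 ± 0.09). These were 3 of the 4 immune markers tested. The other, CD14, was not called (0.076), and after the length and GC correction it was lower (-0.35, limma adjusted p = 0.0043). COL1A1, a fibroblast collagen gene, had 0.516 and 0.591 FPKM against 2.50 and 2.41 (1.15 ± 0.09). The other tested fibroblast marker, FBLN1, was not called (-0.12), and the 12 fibroblast markers summed to 14.3 and 14.4 FPKM against 15.02 and 15.9. The 12 muscle markers analysed summed to 1.09 and 1.21 FPKM against 2.39 and 2.15, and the 13 liver markers to 0.538 and 0.502 against 2.43 and 1.87. Germline markers (9 analysed) summed to 0.697 and 0.523 FPKM against 0.783 and 0.940, but to 125 and 117 reads against 70 and 90. Of that knockdown control FPKM, TNP2, at 0 in the other groups, gave 0.227 and 0.263. Neuronal markers (16 analysed) summed to 14.2 and 14.1 FPKM against 12.9 and 14.5, and to 4147 and 4442 reads against 3289 and 3829. The 10 endothelial markers summed to 3.66 and 3.18 FPKM against 3.77 and 4.52, but to 572 and 533 reads against 281 and 373. All 10 were above 0 in both vector control libraries, and 5 in both knockdown control libraries. The only endothelial marker tested was called higher in the knockdown control (0.89, and 0.55 after the length and GC correction). Erythroid and skin lists had higher sums by either measure. The part of other cells in these values was not tested.

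Many near-silent genes had reads in the knockdown control alone. Its libraries listed 1435 and 1341 genes at 0, and the other 6 libraries, of similar totals, from 2205 to 2327. The number above 0 in both libraries of a group and at 0 in the other 6 was 198 for the knockdown control, 10 for the vector control, 11 for overexpression and 7 for knockdown. With at least 3 recovered reads in both libraries the counts were 46, 0, 0 and 0. With 1 of its libraries left out, which then need not hold reads, the knockdown control count was 469 (without replicate 1) and 449 (without replicate 2). The reverse case, 0 in both libraries of a group and above 0 in the other 6, held for 8 genes in the knockdown control and for 18 to 26 in the other groups. A count of 0 in a single library allows an expected number of up to 3 reads there, and zeros in 6 libraries together allow fewer. Genes with 1 or 2 reads were picked from the whole table by their values. Those values alone still do not set such genes apart from the other groups.

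The 198 genes lay at 0.00318 to 0.533 FPKM, with a median of 0.0306, and 32 reached 0.1 FPKM. The 10 highest were USP17L7, DEFB115, TOMM20L, CDRT15L2, FBP2, FRG2, OR8G5, TNP2, DIO3 and TRIM43. TNP2 encodes a transition protein of sperm chromatin. DIO3, the enzyme that inactivates thyroid hormone (chromosome 14, 101561351 to 101563452, plus strand), had 0.227 and 0.258 FPKM, or 17 and 20 reads. FBP2, muscle fructose bisphosphatase, had 11 and 18 reads, and OR8G5, an olfactory receptor gene, 13 and 15. DEFB115, a beta-defensin gene, had 6 and 1 reads, and TRIM43 had 3 and 11. USP17L7 at 0.534 and 0.532 FPKM and TOMM20L at 0.335 and 0.324 came out at a recovered length far below their transcript, so their read numbers are not given. USP17L7, FRG2 and TRIM43 belong to families of near-identical copies and are uncertain.

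Members of the set were spread over 23 chromosomes and were at low levels throughout. Chromosome 1 held 24 of them, 12.3% against 10.2% of all genes. Their median GC content was 52.3% against 49.1% over the table, their median exon number 6 against 8, and 17 of them (8.72%) were single-exon genes against 4.65%. RefSeq lists 197 of the 198 as protein-coding, a share like that of the whole table (16943 of 17056 genes). Of the fixed lists, the immediate early gene DUSP2, the scavenger receptor gene STAB2, and the markers TNP2 and KRT1 were among those in the set. Where the read number could be resolved against a transcript length (158 genes), the median was 2 reads in each knockdown control library and the highest 19 and 22.

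The table holds no gene at 0 in all 8 libraries. The 198 genes are therefore in it through the knockdown control alone, and the numbers of genes at 0 in the other groups include them. Neither count is independent of the other. The source of these reads was not tested.

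**Figure D5:**
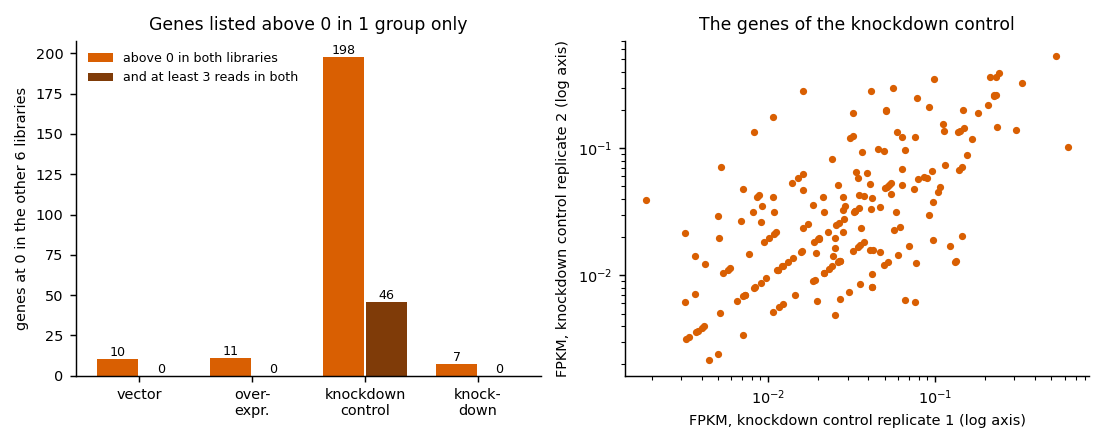
Left, number of genes above 0 in both libraries of a group and at 0 in the other 6, without and with a minimum of 3 recovered reads in both. Right, FPKM of the 198 knockdown control genes in its 2 libraries (log axes); the knockdown control bar stands at 198 against 7 to 11 in the other groups.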

How the data were processed

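Total RNA of A549 cells was sequenced in 8 libraries, 2 in each of 4 groups. The authors deposited a table of FPKM values, a column per library, and HISAT2, featureCounts, HTSeq and R 3.2.0 are listed, per the submitters' processing notes, with no role or order. No source used here gives the strand setting or gene annotation. In all 17056 genes the deposited FPKM values came out as whole reads (100% of values, tolerance 0.02 reads), with the smallest whole-number length that fits, so reads of genes with few reads are lower bounds.

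The test was limma's moderated linear model with a mean trend (version 3.58.1, R 4.3.3, two-sided) on log2(FPKM + 1), which understates changes of low genes. It ran over the 10648 genes whose mean reached 1 FPKM. All 4 groups entered the fit (4 residual degrees of freedom), and a gene counted as called when its p, adjusted by Benjamini and Hochberg's method, was below 0.05. Every adjusted p in the text is limma's. An exact permutation test of 2 against 2 cannot go below 0.333. Positions, GC content and exon numbers came from GENCODE 29 on build GRCh38, which gave GC content for 99.8% of the tested genes. Promoters came from RefSeq. The alternatives were 2 pseudocounts, 2 filters, 3 scalings, other fits, voom on recovered reads, a length and GC correction (loess, span 0.3) and leaving out libraries.

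The comparison, the gene lists and the named genes' rule were chosen with earlier results of these data known. Genes were named by this rule: the 15 largest differences in each direction of called genes with no overlap between the controls, at most 4 genes per list by smallest p, the A549 markers, and the 10 highest of the genes above 0 only in the knockdown control. Other list members in the text were picked with their values known. Libraries with the same replicate number shared no deviation from their group means (correlations between -0.06 and 0.06). The labels do not say whether these numbers pair the libraries, and the correlations cannot settle it. Some items are not reported here.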

Additional observations from a re-analysis of the deposited data

How the results depend on the processing

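Under 16 alternative fits between 5467 (minimum of 5 FPKM, where fewer genes are tested) and 8102 (no filter) genes were called, against 7309. Correcting for length and GC gave 6233, and there were 7480 with voom on recovered reads and 6517 to 6711 with a library left out. Calls of higher genes were 2360 with TPM scaling, against 3918, and 3474 to 3614 with a library left out. Calls of lower genes were 5085 with TPM scaling, against 3391, and 3004 to 3097 with a library left out. With an absolute difference of at least 1 required, 415 genes were called, 200 higher and 215 lower. With the replicate block 7320 genes were called and none of the 185 named genes tested changed its call. The labels do not say whether replicate numbers pair the libraries.

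Of the 198 genes above 0 only in the knockdown control, 46 had at least 3 recovered reads in both libraries. With a library left out the number was 222 to 469. Spearman's rho with length was -0.57 at a minimum of 5 FPKM, -0.46 with quantile scaling, 0.018 after the length and GC correction and -0.54 to -0.50 with a library left out. With GC content it was 0.50 at the minimum of 5, -0.013 after the correction and 0.501 to 0.535 with a library left out. With exon number it was -0.46, -0.38 (quantile scaling), -0.23 (correction) and -0.41 to -0.39 with a library left out.

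Of the 185 named genes tested, 155 kept their direction and call under every alternative that could be run on them. All were run under 14 of the 16, 155 genes at a minimum of 5 FPKM and 184 with the length and GC correction. After the length and GC correction the sign turned in ACSL3 (0.020), AKR1C2 (0.24), APOC1 (-0.25), CD14 (-0.35), HSPB1 (-0.13), ID1 (-0.068), ID2 (-0.00028), KRT18 (-0.0059), KRT8 (-0.10), NR1H2 (-0.14), PSMA7 (-0.041) and SLC39A10 (0.11). It turned with TPM scaling in CD14 (-0.081), SNAP25 (-0.047) and SYT1 (-0.15), with quantile scaling in KRT8 (-0.18) and with median-of-ratios scaling in SYT1 (-0.011). With a library left out AKR1C2 ranged from -0.016 to 0.016, CD14 from -0.011 to 0.16 and SYT1 from -0.054 to 0.13, and none of these 3 was called with FPKM as deposited and all libraries. Of the genes that turned after the correction, AKR1C2, APOC1, CD14, HSPB1 and KRT8 were called there, as was KRT8 with quantile scaling. The correction removes a trend on length and GC by construction, and otherwise the cause was not tested. Depth limits genes under 1 FPKM, where values rest on few reads.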
